A study of Mus musculus with 24 samples.

Results

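Mammary glands of NZB mice were compared with those of C57 mice on day 21 of lactation. The comparison takes every sample that the labels place on that day, which is 6 of the 24 samples of the series, 3 NZB mice and 3 C57 mice. Casein transcripts were lower in NZB glands than in C57 glands. Relative to the other non-milk transcripts, many genes of fat and cholesterol synthesis were lower too. So were some genes of the calcium and phosphate supply of milk, although the ion transport list as a whole split in both directions. Some transcripts known from the regressing gland were higher, among them Igfbp5, Tgfb3, the protease Ctsl and the metalloproteinases Mmp2 and Mmp3. Many heat shock, macrophage and adipocyte genes were higher too. Lists of STAT3 signalling, lysosomal and autophagy genes had median differences close to that of all genes.

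During lactation, secretory epithelial cells of the alveoli make milk proteins, lactose and fat droplets under prolactin, which acts through the transcription factor STAT5. When milk is no longer removed, the gland involutes. Cytokines of the LIF family then act through STAT3, the cells take up milk fat and enlarge their lysosomes, many alveolar cells die, and later matrix proteases, macrophages and adipocytes rebuild the tissue. The labels give no information on litters, suckling or time of day, and day 21 lies near the usual age of weaning in mice.

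All 6 mice are on the BL/6 background, and the labels name the genotypes BL/6 NZB and BL/6 C57. These names are used for strains with the mitochondrial DNA of NZB or C57 mice, which the labels do not spell out. The table comes from a first pregnancy, each sample is the inguinal gland of 1 mouse, and polyadenylated RNA was sequenced from frozen tissue. The labels do not say whether the mice of a group came from separate litters, so the p-values measure the spread between these samples. In units of 1000000 reads, the libraries held 14.81 to 18.87 in NZB and 17.55 to 21.11 in C57, within a range of 7.03 to 24.25 over the series. Gm29216, a nuclear copy of a mitochondrial gene on chromosome 1, served as a check of the labels. It stood at 0 in all 3 NZB glands, against 928, 574 and 453 CPM (counts per 1000000) in the C57 glands. In the wider series 1 C57 non-lactating sample carries the NZB name in its genotype tag. It enters no test here, but the C57 non-lactating values given for comparison include it.

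Milk protein transcripts made up a far smaller part of the NZB libraries. The 11 genes counted here as milk protein genes, which are the 5 caseins, Wap, Trf, Lalba, Glycam1, Cel and Wfdc18, held 29.2%, 16.6% and 24.1% of all counts in the 3 NZB glands. In the C57 glands they held 61.0%, 75.5% and 73.2%. The groups did not overlap. NZB glands averaged 23.3% ± 6.31 and C57 glands 69.9% ± 7.79 (SD, n = 3 each), which is -46.6 percentage points with a 2-sided exact permutation p of 0.1, the smallest that 3 against 3 allows. Leaving out 1 mouse at a time gave -51.1 to -43.3 points, and the 5 caseins alone gave -40.2 points. Whole glands were sequenced, so fewer secretory cells and less milk protein RNA per cell cannot be told apart. No label gives a batch, so no value within a batch could be had.

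On the earlier days the genotypes held like shares. On day 14 NZB glands averaged 71.3% ± 3.63 and C57 glands 70.0% ± 5.99, which is 1.25 points apart (exact permutation p = 0.7, n = 3 each). On day 8 NZB glands averaged 73.5% ± 1.67 and C57 glands 73.7% ± 2.74, with NZB less C57 at -0.20 points (exact permutation p = 0.9, n = 3 each). Non-lactating glands held 1.44% in NZB and 0.43% in C57 on average.

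**Figure D1:**
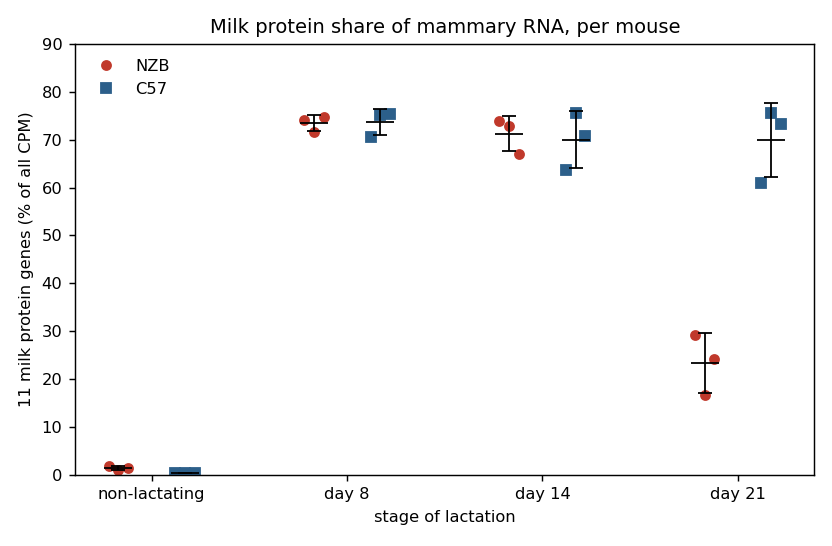
Share of all counts held by 11 milk protein genes (y axis, percent) in each mouse (points) with the group mean and SD, by stage, with NZB left of C57. On day 21 the 3 NZB glands lie between 16.6% and 29.2% and the 3 C57 glands between 61.0% and 75.5%, while the genotypes overlap on days 8 and 14.

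The stretches of DNA just upstream of 4 genes are shown because STAT factors bind the palindrome TTCNNNGAA. These milk and STAT3 pathway genes carry it in the 250 bases before their RefSeq start. The motif reads the same on both strands. It occurs upstream of 8.13% of the 27025 genes of the RefSeq table (build GRCm38.p6) and in 7.02% of its 32851 windows, in 3 of the 8 milk protein genes that have a window there and in 3 of 27 genes of the STAT3 list that have one. A match is a description of the letters and not evidence of binding. The GENCODE span given for Csn2 further below starts farther upstream than the RefSeq start, so it reaches into the Csn2 window and covers the motif. Capitals mark the motif, and each sequence runs 5′ to 3′ along the gene's own strand. The windows are chr5:87665958-87666207 on the plus strand for Csn1s1 (alpha casein), chr5:87699426-87699675 on the minus strand for Csn2 (beta casein), chr15:103565082-103565331 on the minus strand for Glycam1 (a secreted mucin-like milk protein) and chr11:117969367-117969616 on the minus strand for Socs3 (a feedback inhibitor of STAT3 signalling).
Csn1s1: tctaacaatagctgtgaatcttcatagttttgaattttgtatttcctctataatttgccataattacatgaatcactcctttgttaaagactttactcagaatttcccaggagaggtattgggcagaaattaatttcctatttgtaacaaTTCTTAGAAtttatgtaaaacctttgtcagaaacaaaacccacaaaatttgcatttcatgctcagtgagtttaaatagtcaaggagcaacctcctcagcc
Csn2: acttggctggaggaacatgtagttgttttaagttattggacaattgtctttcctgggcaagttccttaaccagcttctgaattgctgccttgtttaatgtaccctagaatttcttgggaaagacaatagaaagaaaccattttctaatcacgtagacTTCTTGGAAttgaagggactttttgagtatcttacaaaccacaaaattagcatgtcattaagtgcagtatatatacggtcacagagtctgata
Glycam1: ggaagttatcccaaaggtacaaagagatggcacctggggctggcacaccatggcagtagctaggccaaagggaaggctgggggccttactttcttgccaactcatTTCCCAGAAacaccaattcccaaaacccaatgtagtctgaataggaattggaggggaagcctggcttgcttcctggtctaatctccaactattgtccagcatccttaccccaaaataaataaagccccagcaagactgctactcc
Socs3: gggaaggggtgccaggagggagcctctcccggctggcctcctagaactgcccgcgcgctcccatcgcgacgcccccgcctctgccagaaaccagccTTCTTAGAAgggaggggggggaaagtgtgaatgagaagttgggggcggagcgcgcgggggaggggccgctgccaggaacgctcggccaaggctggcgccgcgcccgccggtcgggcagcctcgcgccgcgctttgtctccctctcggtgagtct

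The milk protein genes did not all move together. Csn2, at chr5:87692624-87699630, had 111639, 47498 and 56890 CPM on the deposited scale in the NZB glands, against 248912, 290313 and 275834 CPM in the C57 glands. Csn1s1, in the same casein cluster, had 77857, 49695 and 68600 CPM in NZB, against 150982, 166616 and 175038 CPM in C57. For both genes every NZB value lay below every C57 value. Csn2 fell by 2.02 on the log2 scale (limma, SE 0.59, adjusted p = 0.0023) and Csn1s1 by 1.35 (SE 0.56, adjusted p = 0.025).

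Of the other caseins, Csn1s2a fell by 2.60, Csn1s2b by 2.03 and Csn3, the kappa casein that keeps the micelle in suspension, by 1.14 on the deposited log2 scale (limma adjusted p = 2.8e-05, 0.00021 and 0.029). Whey acidic protein Wap fell by 1.44, Trf, which carries iron, by 1.25, and Lalba, the alpha-lactalbumin that directs lactose synthesis, by 0.84 (adjusted p = 0.011, 0.015 and 0.023). Glycam1 had 7923, 3637 and 5797 CPM in NZB, against 5266, 3228 and 3357 CPM in C57. The Glycam1 groups overlapped, and its log2 difference of 0.52 did not pass (adjusted p = 0.23). Cel, a lipase secreted into milk, differed by 0.48 with adjusted p = 0.18. Wfdc18, a small whey-type protein, rose: it had 1218, 2106 and 3596 CPM in NZB, against 701, 427 and 361 CPM in C57, a log2 difference of 2.14 (SE 0.39, adjusted p = 1.4e-05).

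These values share their denominator with the caseins themselves. Set against the sum of all other genes, the log2 difference was -3.39 for Csn2, -2.73 for Csn1s1, -2.82 for Wap, -0.86 for Glycam1, -0.90 for Cel and 0.76 for Wfdc18, so that Glycam1 and Cel changed sign with the denominator.

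**Figure D2:**
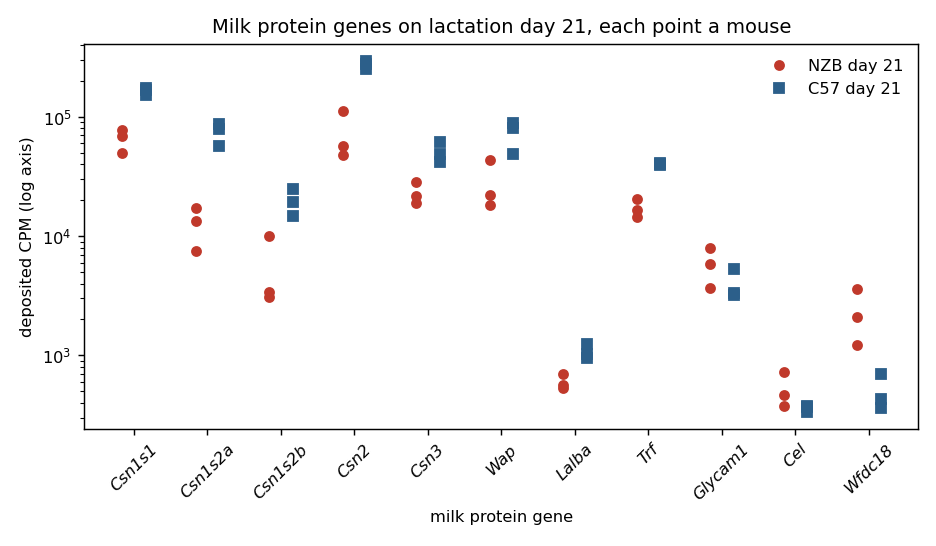
Deposited CPM (y axis, log scale) of the 11 milk protein genes (x axis) in each mouse, with NZB left of C57. The caseins, Wap, Trf and Lalba lie lower in all NZB glands, Glycam1 overlaps between the genotypes, and Wfdc18 lies higher in all NZB glands.

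Because milk proteins took most counts in C57 and at most 29.2% in NZB, other genes took more of the NZB libraries. On the deposited scale 12730 of 14299 genes tested were higher in NZB (89%) and 145 lower (1.01%), with a median log2 difference of 1.43 over all genes. All values from here on were therefore rescaled to the same total without the 11 milk protein genes, called non-milk CPM. On that scale 2478 of 15302 genes were higher in NZB (16.2%) and 835 lower (5.46%) at a limma adjusted p under 0.05, with a median of 0.31. Of the genes called, 1693 higher and 546 lower differed by at least 1 on the log2 scale, and 59 higher and 43 lower by at least 3.

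The counts moved with single mice and with the scaling, and a list near 16.2% higher or 5.46% lower is near the background. Lists given with 0 genes in a direction had at most 4 genes there at an unadjusted limma p under 0.05 (endothelial markers, higher) and 0 by limma voom. Without C57 mouse 2 1165 genes were higher and 487 lower, without C57 mouse 3 1318 and 533, without NZB mouse 2 1333 and 553, without NZB mouse 3 1614 and 608, and without C57 mouse 1 3661 and 982. C57 mouse 1 lay nearest to the NZB mice of all C57 mice in 60.7% of the 3313 called genes. A trimmed mean scaling, which brings the median to 0.08, called 1316 genes higher and 1212 lower, so the share of calls that were higher was 52.1% there and 74.8% in the main result. All 2151 genes called under both scalings had the same sign. Of the 2622 genes called on both the deposited and the non-milk scale, 39 had opposite signs.

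The 15 largest decreases include transporters, enzymes and secreted factors. Slc34a2, the phosphate transporter of the alveolar cell's apical membrane (chr5:53038081-53071664), had 161, 46.8 and 31.4 non-milk CPM in NZB, against 5103, 6254 and 5762 in C57. The lowest C57 gland lay far above the highest NZB gland, and the log2 difference was -6.50 (limma, SE 0.47, adjusted p = 3.3e-05). Atp2b2, the plasma membrane pump that moves calcium into milk (chr6:113743831-114042613), had 18.8, 19.5 and 17.3 in NZB, against 958, 2157 and 2524 in C57, a log2 difference of -6.48 (SE 0.31, adjusted p = 2.5e-06). Its 3 NZB glands lay close together, and C57 mouse 1 was the lowest C57 gland. Pthlh, the parathyroid hormone-related peptide that the lactating gland releases to draw calcium from bone, had 5.01, 4.49 and 3.01 in NZB, against 67.5, 142 and 143 in C57 (log2 -4.46, SE 0.31, adjusted p = 3.0e-05). All 3 genes serve the mineral supply of milk.

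Lao1, an L-amino acid oxidase secreted into mouse milk, had 892, 212 and 334 non-milk CPM in NZB, against 6471, 15921 and 17150.0 in C57 (log2 -4.92, adjusted p = 0.00022). Olah, the thioesterase that releases medium-chain fatty acids from fatty acid synthase, had 111, 52.2 and 31.1 in NZB, against 1015, 1488 and 1474 in C57 (log2 -4.50, adjusted p = 6.8e-05). Ccl28, the chemokine that draws IgA-secreting plasma cells into the lactating gland, had 133, 26.0 and 46.1 in NZB, against 1249.5, 2028 and 1098 in C57 (log2 -4.67, adjusted p = 0.00019). None of these overlapped between genotypes, which the rule for choosing them required. The other 9 of the 15 largest decreases ran to -3.81 and included the sodium-proton exchanger Slc9a4 (-4.19), the proton pump Atp12a (-4.01), the glycine-cleaving enzyme Gldc (-3.98) and Cidea (-3.81), a lipid droplet protein. Serpina3g (-4.74) and Serpina3f (-4.16) belong to a family of close copies, among which reads can be split.

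**Figure D3:**
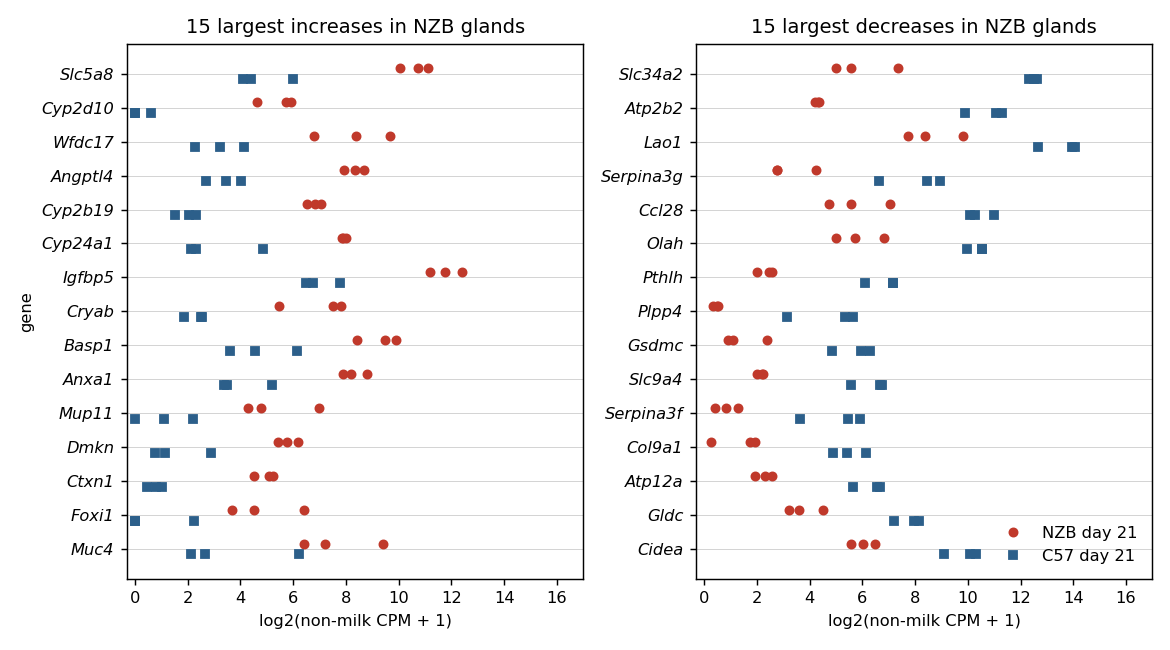
Non-milk CPM on the log2(CPM + 1) scale (x axis) of the 15 largest increases and the 15 largest decreases in each mouse, with NZB above C57 for each gene. No gene shown overlaps between genotypes, which the rule for choosing them required, and C57 mouse 1 is often the C57 point nearest to NZB.

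Most genes of fat and cholesterol synthesis fell on the non-milk scale. Of 35 tested genes of fatty acid and triglyceride synthesis, 22 fell and 5 rose, with a median log2 difference of -1.33 beside 0.31 over all genes. Leaving out 1 mouse at a time left 18 to 22 that fell. Elovl5, which lengthens polyunsaturated fatty acids, had 140.5, 167 and 188 non-milk CPM in NZB, against 1163, 2041 and 1775 in C57 (log2 -3.29, SE 0.24, adjusted p = 3.5e-05). Fabp3, the fatty acid binding protein of the lactating gland, fell by 3.28, the desaturase Fads1 by 2.48 and the phosphatidate phosphatase Lpin1 by 2.31 (limma adjusted p = 0.00014, 0.00019 and 0.00021). These 4 were also lower on the deposited scale. The 5 that rose include Fabp4 (1.74), Dgat2 (2.59) and Agpat2 (1.68), which adipocytes also use.

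Of 25 tested genes of cholesterol synthesis and uptake, 17 fell and 0 rose, with a median of -1.06, and 14 to 17 fell when 1 mouse was left out. The pathway enzymes Fdps (-2.39), Mvd (-2.30), Hsd17b7 (-2.16) and Sqle (-1.97) were among them. Fdps, which makes farnesyl diphosphate, had 16.3, 17.6 and 14.6 non-milk CPM in NZB, against 92.1, 73.7 and 104 in C57, with no overlap between the genotypes. Both lists were mixed on the deposited scale, with 13 lipid genes higher and 8 lower (median 0.03) and 5 cholesterol genes higher and 6 lower (median -0.05), so their direction as groups depends on the denominator.

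Of 12 tested genes that coat and release the milk fat globule, 6 fell and 1 rose (median -1.0), with 4 to 7 lower when 1 mouse was left out. Btn1a1, butyrophilin, had 1766, 1725 and 1639.5 non-milk CPM in NZB, against 6284, 7846 and 7704 in C57 (log2 -2.08, adjusted p = 0.00076). Its partner Xdh, xanthine oxidoreductase, fell by 1.61, and Rab18, a GTPase on lipid droplets, by 2.22 (adjusted p = 0.0049 and 8.4e-05). In the lactose list 6 of 15 genes fell and 2 rose (median -0.08). B4galt1, the galactosyltransferase that works with alpha-lactalbumin, had 624, 802 and 754 in NZB, against 3357, 4602 and 4650.4 in C57 (log2 -2.52, adjusted p = 0.00017). Slc2a1, which brings glucose into the secretory cell, fell by 1.53, whereas Slc2a4, the insulin-responsive glucose carrier of fat and muscle, rose by 1.47 (adjusted p = 0.00055 and 0.0094). On the deposited scale 5 fat globule genes were higher and 2 lower, and 9 lactose genes were higher and 2 lower.

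The ion transport list split in both directions, with 11 of 34 genes lower and 6 higher (median 0.08), and with 3 lower and 22 higher on the deposited scale. Beside Slc34a2, Atp2b2 and Pthlh, the zinc exporter Slc30a2 fell by 2.03 and the calcium store sensor Stim2 by 1.59. The widely expressed calcium pump Atp2b1, the counterpart of Atp2b2, had 179, 186 and 179.7 non-milk CPM in NZB, against 84.8, 61.6 and 50.8 in C57, and rose by 1.48 (adjusted p = 0.0009). Among amino acid transporters 5 of 20 fell and 3 rose (1 lower and 12 higher on the deposited scale), with Slc38a2 at -2.0 and Slc7a2 at -2.24. Among junction genes 4 of 18 rose and 2 fell. The connexin Gjb1 fell by 3.61 and the claudin Cldn8 by 2.29, whereas the connexin Gja1 rose by 1.42.

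The largest increases came from genes with various roles. Slc5a8, a sodium-coupled monocarboxylate carrier (chr10:88885992-88929515), had 1059, 1719 and 2224 non-milk CPM in NZB, against 62.4, 20.3 and 16.3 in C57 (log2 5.80, SE 0.43, adjusted p = 3.8e-05). Igfbp5, which binds insulin-like growth factors and is known to accumulate in the involuting gland (chr1:72857932-72874884), had 2362, 5368 and 3498 in NZB, against 217, 106 and 89.9 in C57 (log2 4.78, SE 0.37, adjusted p = 3.9e-05). Angptl4, an inhibitor of lipoprotein lipase, had 244, 323 and 412 in NZB, against 15.4, 5.41 and 10 in C57 (log2 4.93, SE 0.32, adjusted p = 1.9e-05). In each of these genes the lowest NZB gland lay above the highest C57 gland, which the rule for choosing them required.

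Cyp24a1, the enzyme that inactivates vitamin D, had 257, 234 and 230.0 non-milk CPM in NZB, against 4.02, 3.35 and 28.3 in C57 (log2 4.81, adjusted p = 0.00038). Anxa1, a phospholipid-binding protein that dampens inflammation, had 237, 291 and 441 in NZB, against 36.2, 10.2 and 9.30 in C57 (log2 4.27, adjusted p = 0.00019). Cryab, a small heat shock protein, rose by 4.64, and Wfdc17, a whey-type protein known from activated macrophages, by 5.06 (adjusted p = 0.00025 and 0.00048). Further increases among the first 15 were Basp1 (4.5), Dmkn (4.19), Ctxn1 (4.18), the transcription factor Foxi1 (4.12) and the membrane mucin Muc4 (4.01). Muc4 lost its call without C57 mouse 2 or 3 (adjusted p = 0.069 and 0.084). Cyp2d10 (5.23), Cyp2b19 (4.83) and Mup11 (4.25) belong to families of close copies.

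Ligands and receptors of the involution pathways rose in part. In the STAT3 list 7 of 32 tested genes rose and 4 fell (median 0.33, close to that of all genes), and 3 to 8 rose when 1 mouse was left out. Osmr, the receptor for oncostatin M, had 296, 302 and 213 non-milk CPM in NZB, against 65.4, 32.3 and 37.7 in C57 (log2 2.61, SE 0.26, adjusted p = 0.00019). Socs3, whose upstream window is printed above, had 21.4, 44.8 and 51.4 in NZB, against 11.2, 1.97 and 7.88 in C57 (log2 2.46, SE 0.50, adjusted p = 0.0067). Neither overlapped, while the kinase gene Pim1, a target of both STAT3 and STAT5, fell by 2.65 (adjusted p = 0.00021). On the trimmed mean scale 3 of the list rose and 4 fell.

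In the list of TGF beta and IGF genes 8 of 20 rose and 1 fell (median 0.57), with 5 to 7 higher when 1 mouse was left out. Under the trimmed mean scaling 4 rose and 3 fell. Tgfb3, a ligand that milk stasis induces, had 258, 339.6 and 346 non-milk CPM in NZB, against 33.2, 40.9 and 75.5 in C57 (log2 2.71, SE 0.28, adjusted p = 0.00019). Igf1r, the IGF receptor, rose by 1.66 (adjusted p = 0.0021). Irs2, an insulin receptor substrate, had 224, 165 and 112 in NZB, against 236, 389 and 563 in C57, a fall of 1.21 (adjusted p = 0.024) that was a difference of 0.16 on the deposited scale. Without C57 mouse 2 or 3 or NZB mouse 2 or 3 the adjusted p of Irs2 was 0.055 to 0.099. In the prolactin and STAT5 list 3 of 20 genes rose and 2 fell (median -0.05), with 1 to 6 higher when 1 mouse was left out, and on the deposited scale 17 were higher and 0 lower. Stat5a (log2 -0.05, adjusted p = 0.87) and Prlr, the prolactin receptor (log2 -0.11, adjusted p = 0.76), overlapped between genotypes. The kinase Akt1 fell by 0.93, a difference of 0.44 on the deposited scale. Stat5a and Prlr were chosen after their values were seen.

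**Figure D4:**
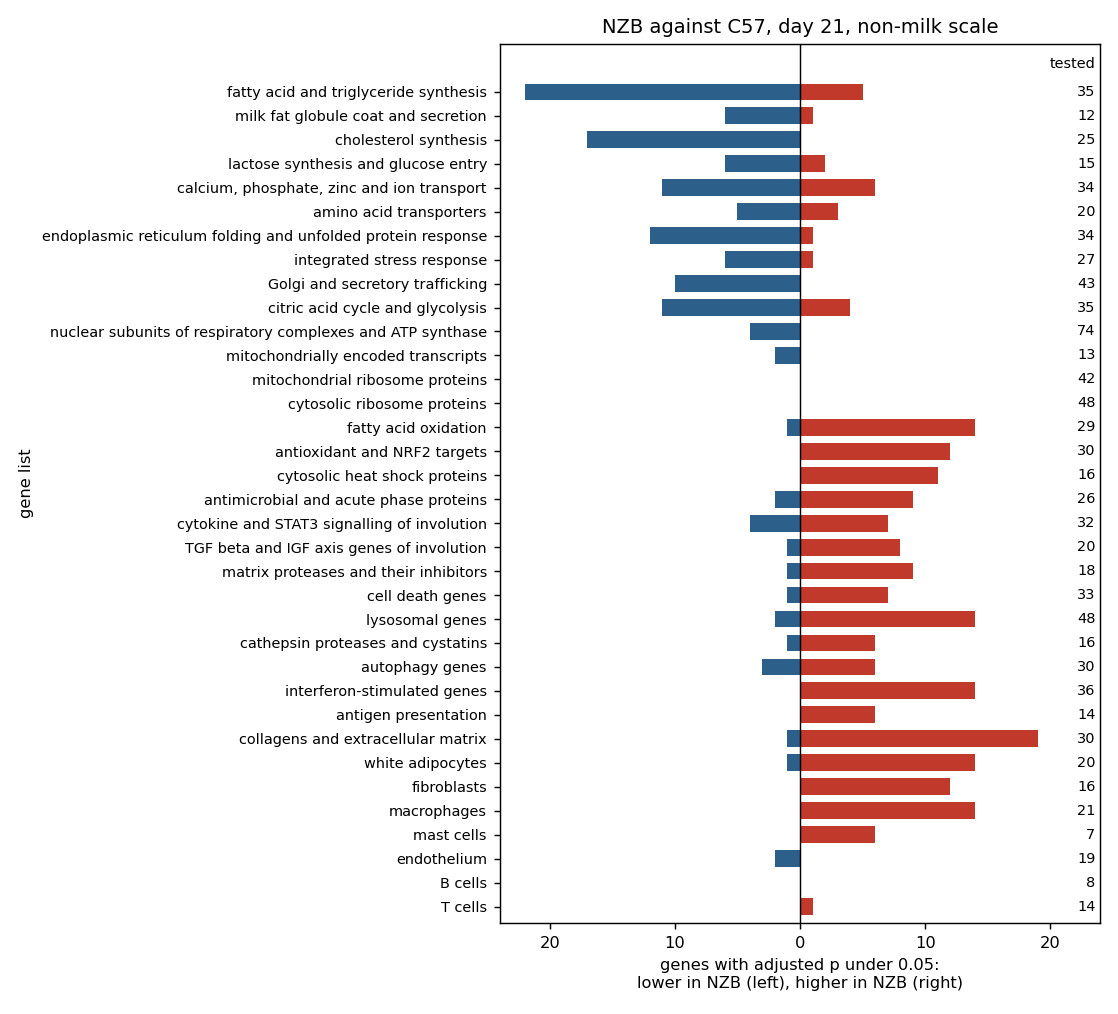
Number of genes of each list that passed limma at an adjusted p under 0.05 on the non-milk scale, with genes lower in NZB drawn to the left and genes higher in NZB to the right. Cholesterol, lipid, Golgi and endoplasmic reticulum lists extend to the left, and collagen, macrophage, adipocyte, heat shock and antioxidant lists to the right.

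Genes of tissue breakdown rose in part, beside 16.2% of all genes. Among matrix proteases and their inhibitors 9 of 18 rose and 1 fell (median 0.96), with 7 to 9 higher when 1 mouse was left out. Timp2, an inhibitor of metalloproteinases, had 332, 541 and 535 non-milk CPM in NZB, against 96.0, 127 and 122 in C57 (log2 1.99, SE 0.23, adjusted p = 0.00032). The metalloproteinases Mmp3 (2.49) and Mmp2 (1.78) rose beside it (adjusted p = 0.00076 and 0.0023). Among cathepsins and cystatins 6 of 16 rose and 1 fell (median 0.68), with 5 to 8 higher when 1 mouse was left out. Ctsl, a lysosomal protease of the involuting gland, had 489, 639 and 869 in NZB, against 117, 93.8 and 119 in C57 (log2 2.55, SE 0.23, adjusted p = 9.9e-05). Ctss (1.71) and the inhibitor Cstb (1.81) rose, while Ctsc fell by 1.40.

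Of 48 lysosomal genes 14 rose and 2 fell, with a median of 0.28, close to that of all genes, and 9 to 16 rose when 1 mouse was left out. On the trimmed mean scale the median was 0.02. Cd63 rose by 2.31, the precursor of granulins Grn by 1.37 and the membrane protein Lamp2 by 1.28 (limma adjusted p = 0.00036, 0.00058 and 0.0016). Gm2a, a ganglioside activator, fell by 1.64, and Atp6v0a1, a proton pump subunit, by 1.02, which was a difference of 0.35 on the deposited scale. In the autophagy list 6 of 30 rose and 3 fell (median 0.32), 0 to 7 rose when 1 mouse was left out, and 1 rose under the trimmed mean scaling. Among cell death genes 7 of 33 rose and 1 fell (median 0.48), with 4 to 9 higher when 1 mouse was left out. Bcl2l1, which protects alveolar cells, had 85.4, 96.7 and 143 in NZB, against 46.8, 17.4 and 34.4 in C57 (log2 1.76, adjusted p = 0.0047). Casp12, a caspase of the endoplasmic reticulum in mice, rose by 1.5 and Trp53 by 1.19 (adjusted p = 0.0018 and 0.0055).

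Many heat shock and antioxidant genes rose. Of 16 cytosolic heat shock genes 11 rose and 0 fell (median 1.36), with 7 to 13 higher when 1 mouse was left out. Hspa1b, the inducible HSP70, had 84.1, 183 and 308 non-milk CPM in NZB, against 36.9, 17.1 and 38.0 in C57 (log2 2.50, SE 0.43, adjusted p = 0.003). Hsp90aa1 rose by 1.94 and the constitutive Hspa8 by 1.46 (adjusted p = 0.0035 and 0.0049). Of 30 antioxidant and NRF2 target genes 12 rose and 0 fell (median 0.85), with 8 to 16 higher when 1 mouse was left out. Hmox1, heme oxygenase, had 185, 239.6 and 576 in NZB, against 24.9, 13.0 and 20.1 in C57 (log2 3.91, SE 0.38, adjusted p = 0.00014). Fth1, the ferritin heavy chain that stores iron, had 3284, 6067 and 8545 in NZB, against 1286, 1299.7 and 1747 in C57 (log2 1.95, adjusted p = 0.0047). The peroxiredoxins Prdx1 (1.77) and Prdx6 (1.63) and the glutathione peroxidase Gpx4 (1.97) rose too. In all 8 genes named NZB mouse 1 was the lowest of the NZB glands.

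The secretory route and the integrated stress response went the other way. Of 34 genes of endoplasmic reticulum folding 12 fell and 1 rose (median -0.21). Fkbp11, a prolyl isomerase of secretory cells, had 2.43, 3.12 and 2.33 non-milk CPM in NZB, against 28.1, 39.6 and 41.8 in C57 (log2 -3.36, SE 0.27, adjusted p = 5.4e-05). P4hb, a disulfide isomerase, fell by 1.71, the chaperone Hspa5 by 0.82, and Herpud1 rose by 1.19 (adjusted p = 0.0003, 0.0084 and 0.011). With 1 mouse left out, 6 to 14 of the folding genes fell, 4 to 15 of the Golgi genes and 3 to 10 of the stress response genes. Of 43 Golgi and trafficking genes 10 fell and 0 rose (median -0.39), among them the coat proteins Copz1 (-1.22) and Sec23b (-1.12) and the cargo receptor Lman1 (-1.19). Of 27 integrated stress response genes 6 fell and 1 rose (median -0.41). Aldh18a1, a proline synthesis enzyme, had 29.0, 33.8 and 30.6 in NZB, against 113, 218 and 228 in C57 (log2 -2.48, adjusted p = 0.00021). The asparagine synthetase Asns fell by 1.30. The gene that rose, Gdf15, ranged from 2.24 to 36.2 in NZB and from 1.24 to 2.05 in C57, and its adjusted p was 0.051 to 0.13 without NZB mouse 2 or 3 or any of the C57 mice. On the deposited scale these 3 lists pointed upward instead, with 21, 33 and 16 genes higher and 1, 0 and 1 lower, and Hspa5 (0.54), Asns (0.06), Copz1 (0.15), Sec23b (0.24) and Lman1 (0.18) changed sign.

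Few genes of the mitochondrial lists passed. Of 13 mitochondrially encoded transcripts 2 fell and 0 rose (median -0.63), against 0 lower and 5 higher on the deposited scale. On the non-milk scale 0% of them lay above the median of all genes. Their summed level was 56145 to 91117 non-milk CPM in NZB and 91401 to 129661 in C57, without overlap. mt-Co2, a subunit of cytochrome oxidase, had 1234, 886 and 1489.9 non-milk CPM in NZB, against 2612, 2739 and 3044 in C57 (log2 -1.25, SE 0.27, adjusted p = 0.009), with a difference of 0.13 on the deposited scale and an adjusted p of 0.052 without NZB mouse 2. mt-Nd3, a complex I subunit, fell by 1.64 (SE 0.32, adjusted p = 0.0056). The other 11 differed by -0.81 to 0.26, with adjusted p of 0.15 to 0.71. How well NZB reads mapped to the reference was not tested.

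Of 74 nuclear subunits of the respiratory complexes 4 fell and 0 rose (median -0.19), near the background of 5.46% lower, and 17 fell without C57 mouse 1. On the deposited scale 60 were higher and 0 lower. The 4 were Atp5g1 (-1.23), Ndufa1 (-0.84), Uqcrq (-0.75) and Ndufc2 (-0.73), each with the opposite sign on the deposited scale. The last 3 of these had adjusted p of 0.078 to 0.18 without NZB mouse 1 or 2 or C57 mouse 2 or 3. No gene of 42 mitochondrial ribosome proteins or of 48 cytosolic ribosome proteins passed limma in either direction, with medians of 0.23 and -0.05. At an unadjusted p under 0.05, 2 of the mitochondrial ribosome genes were higher and 1 lower, and 2 of the cytosolic ones were higher and 0 lower, and limma voom called 0 in both lists. The protease subunit Clpx fell by 1.24 (0.13 on the deposited scale) and the fusion protein Mfn2 rose by 0.90.

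Fuel genes shifted in a pattern by pathway. Of 29 fatty acid oxidation genes 14 rose and 1 fell (median 0.67), with 10 to 18 higher when 1 mouse was left out. Cpt1a, which admits fatty acids to mitochondria, had 84.5, 106 and 106 non-milk CPM in NZB, against 10.7, 11.5 and 9.21 in C57 (log2 3.12, SE 0.20, adjusted p = 1.9e-05). Pdk4, the kinase that shuts pyruvate dehydrogenase, had 372, 829 and 1106 in NZB, against 69.4, 48.0 and 103 in C57 (log2 3.30, SE 0.38, adjusted p = 0.00033). Acadl rose by 2.10 and Eci2 by 1.53, while the peroxisomal Ehhadh fell by 1.16 (0.19 on the deposited scale). In the list of glycolysis and the citric acid cycle 11 of 35 fell and 4 rose (median -0.14), with 7 to 13 lower when 1 mouse was left out, and on the deposited scale 24 were higher and 1 lower. Aldoc (-2.61), the pyruvate dehydrogenase subunit Pdhb (-1.74) and the pyruvate carrier Mpc1 (-1.11, and 0.26 on the deposited scale) fell, and Idh1 (2.15) and Idh2 (1.96), which make NADPH, rose.

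Among antimicrobial and acute phase genes 9 of 26 rose and 2 fell (median 0.90), with 8 to 17 higher when 1 mouse was left out. Ltf, lactoferrin, had 8326, 11119 and 15316 non-milk CPM in NZB, against 2916, 1951 and 1829 in C57 (log2 2.36, SE 0.36, adjusted p = 0.0017). Cd14, the lipopolysaccharide co-receptor that rises early in involution, had 549, 722 and 1274 in NZB, against 91.5, 35.1 and 58.2 in C57 (log2 3.77, SE 0.36, adjusted p = 0.00014). Pigr, which carries IgA into milk, fell by 1.78 and the milk enzyme Lpo, lactoperoxidase, by 2.93 (adjusted p = 0.0021 and 1.9e-05). Lcn2, chosen after its values were seen, differed by 0.69 with adjusted p = 0.17, although its 3 NZB glands (5508, 5358 and 7890.0) lay above the C57 glands (5155, 3386 and 3157).

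Markers of other cell types moved alongside. All 21 macrophage markers were tested, 14 rose and 0 fell, with a median of 1.25, and their summed level was 1344 to 1966 non-milk CPM in NZB and 314 to 453 in C57. With 1 mouse left out 10 to 16 rose. Lyz2 had 257, 113 and 133 in NZB, against 51.9, 32.2 and 44.2 in C57 (log2 1.88, adjusted p = 0.002). The complement gene C1qb rose by 1.44 and the macrophage surface protein Adgre1 by 1.27. Of 14 antigen presentation genes 6 rose and 0 fell, with H2-Aa at 1.47 and H2-Ab1 at 1.54. Of 36 interferon-stimulated genes 14 rose and 0 fell, a count that ran from 3 to 21 when 1 mouse was left out. With the trimmed mean scaling 6 of them rose and 1 fell. Of 8 B cell markers 0 passed in either direction. Their summed level, with the markers too low to be tested, was 53.1, 56.6 and 51.0 in NZB, against 85.7, 28.8 and 32.5 in C57. That overlap too rests on C57 mouse 1. Of 14 T cell markers 1 rose and 0 fell, and without C57 mouse 1 4 rose. The summed T cell level was 103, 65.9 and 74.3 in NZB, against 112, 36.7 and 39.3 in C57, so the overlap rests on C57 mouse 1. Of 12 plasma cell markers 2 rose and 0 fell, near the background of 16.2% higher, with a median of 0.92. With 1 mouse left out 1 to 7 rose. The summed plasma cell level was 8052, 2158 and 10294.5 in NZB, against 1635, 3056 and 3147 in C57, which overlapped.

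Of 20 white adipocyte markers 14 rose and 1 fell (median 1.83), and their summed level was 2915 to 9144 non-milk CPM in NZB and 2195 to 3001 in C57, so the sums overlapped, and 9 to 15 rose when 1 mouse was left out. Plin1, the coat protein of the adipocyte fat droplet, had 348, 109 and 92.4 in NZB, against 47.1, 21.2 and 22.9 in C57 (log2 2.38, adjusted p = 0.0054), with NZB mouse 1 the highest. Lep, leptin, rose by 2.51 and Plin4 by 2.77 (adjusted p = 0.00032 and 0.0018). Of 16 fibroblast markers 12 rose and 0 fell, and of 30 collagen and matrix genes 19 rose and 1 fell (medians 1.28 and 1.12). These 2 counts were 4 and 9 under the trimmed mean scaling, and ran from 4 to 12 and from 9 to 23 when 1 mouse was left out. Fn1, fibronectin, rose by 1.51 and Postn by 1.55, while tenascin Tnc fell by 1.41. Of 19 endothelial markers 0 rose and 2 fell, Prox1 (-1.41) and Kdr (-1.44), whereas on the deposited scale 15 were higher and 0 lower.

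Epithelial markers moved in both directions. Of 13 markers of the secretory luminal cell that were tested, 6 rose and 2 fell, with 4 to 7 higher when 1 mouse was left out and with 4 higher and 4 lower under the trimmed mean scaling. Their summed level went the other way from most of the calls, at 3890 to 4529 non-milk CPM in NZB and 8705 to 10684 in C57, with no overlap. Krt8, a keratin of luminal cells, had 178, 219.8 and 306 non-milk CPM in NZB, against 52.9, 37.8 and 69.5 in C57 (log2 2.12, adjusted p = 0.00047). Krt19 rose by 2.62 and Kit, a receptor of luminal progenitors, by 2.91 (adjusted p = 0.00026 and 0.002). Epcam, an epithelial adhesion gene also chosen after its values were seen, had 309.9, 235 and 271 in NZB, against 235, 205 and 273 in C57, which overlapped (log2 0.19, adjusted p = 0.49). Among hormone-sensing markers 4 of 10 rose and 1 fell (1 to 5 higher when 1 mouse was left out), with the estrogen receptor Esr1 at -1.37 and the progesterone receptor Pgr at 2.03 (adjusted p = 0.052 without C57 mouse 3). Of 13 myoepithelial markers 3 rose and 0 fell, among them Trp63 at 1.66, with 1 to 5 higher when 1 mouse was left out and 1 under the trimmed mean scaling.

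Skeletal muscle genes differed between the NZB glands. Of 5 tested muscle markers 4 rose and 0 fell (median 2.90). With 1 mouse left out 1 to 5 rose, and 1 rose under the trimmed mean scaling. Ckm, muscle creatine kinase, had 35.1, 111 and 4.33 non-milk CPM in NZB, against 5.63, 3.15 and 1.86 in C57, and the groups overlapped. It lost its call without C57 mouse 2 or 3 or NZB mouse 1 or 2 (limma adjusted p = 0.090 to 0.16). The summed level of the muscle markers, with those too low to be tested, was 320, 1037 and 16.6 in NZB and 5.61 to 10.2 in C57. The part of muscle in the other results was not tested.

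On days 14 and 8 few genes passed the test. On day 14 4 of 14871 genes were higher in NZB (0.0269%) and 2 lower (0.0134%), and on day 8 10 of 14689 were higher (0.0681%) and 3 lower (0.0204%). Of the 4 genes called on both days, Gm11410, Gm13339 and Gm13340, pseudogenes on chromosomes 4 and 2, were higher in NZB, and Gm29216 was lower. All 4 were called again on day 21. None of the 15 largest increases or 15 largest decreases of day 21 was called on either earlier day, where some were too low to be tested. Their differences ran from -1.14 to 1.67 (increases) and -2.51 to 0.42 (decreases) on day 14.

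Whether the difference itself changed was tested with an interaction term. Between day 14 and day 21 the NZB difference was higher in 506 of 15872 genes (3.19%) and lower in 359 (2.26%). Between day 8 and day 21 it was higher in 997 of 15849 genes (6.29%) and lower in 674 (4.25%). The 15 largest decreases passed in 13 cases against day 14 and in 14 against day 8, with Slc34a2 at -6.36 (SE 0.64, adjusted p = 0.00024) and Atp2b2 at -5.99 (SE 0.66, adjusted p = 0.00045) against day 14. The 15 largest increases passed in 7 cases against day 14 and in 13 against day 8. Both sets were chosen by their day 21 difference, which the interaction uses again. The choice itself therefore favours a pass, and these counts are no separate support. Igfbp5 (3.85, adjusted p = 0.076) and Slc5a8 (4.70, adjusted p = 0.057) did not pass against day 14.

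One NZB gland of day 14 stood apart. NZB day 14 mouse 3 was the highest NZB gland of that day in 15 of the 15 leading increases and the lowest in 14 of the 15 leading decreases. Igfbp5 had 90.4, 136 and 2374 non-milk CPM in the NZB glands of day 14, against 235, 133 and 134 in the C57 glands, and Slc5a8 had 19.8, 37.4 and 699 in NZB, against 77.9, 22.9 and 29.1 in C57. Only that mouse reached the range of the NZB day 21 glands, in 5 of the increases and in 0 of the decreases. Slc34a2 stood at 3157 in that gland, against 6762 and 6010 in the other NZB glands of day 14. Its milk protein share was 67.1%. Without it the interaction called 776 genes higher and 462 lower. Without NZB day 14 mouse 2 it called 94 and 157, without mouse 1 207 and 202, without C57 day 14 mouse 1 159 and 215, and without C57 day 14 mouse 3 219 and 218. Of the day 21 mice, leaving out C57 mouse 1, 2 or 3 gave 1291 and 579, 134 and 194, and 155 and 200, and leaving out NZB mouse 2 gave 179 and 213. Against day 8, where each of the 12 mice of both days was left out in turn, C57 day 21 mouse 1 (1574 higher) and mouse 2 (658 higher) and C57 day 8 mouse 3 (662 higher) moved a count by more than 1.5 times.

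**Figure D5:**
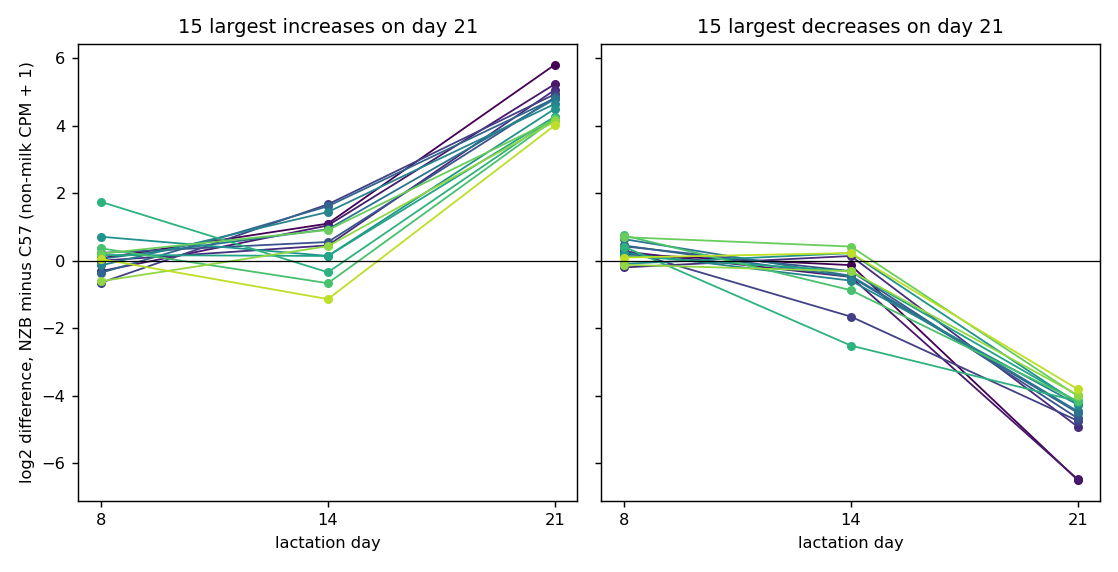
Difference of NZB minus C57 in mean log2(non-milk CPM + 1) (y axis) on lactation days 8, 14 and 21 (x axis), a line for each of the 15 largest increases and the 15 largest decreases of day 21. The increases lie between -1.14 and 1.67 on day 14, and the separation on day 21 follows from choosing the genes by their day 21 difference.

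Beside NZB glands that were not lactating, the NZB day 21 glands were near the non-lactating level for some genes and not for others. These are values side by side with no test. Slc34a2 ranged from 31.4 to 161 non-milk CPM in NZB day 21 glands and from 22.0 to 43.8 in NZB non-lactating glands, and Atp2b2 from 17.3 to 19.5 and from 10.1 to 17.8. Olah stayed above, at 31.1 to 111 on day 21 and 6.15 to 11.5 in non-lactating NZB glands. Igfbp5, at 2362 to 5368 on day 21, was above the 435 to 869 of non-lactating NZB glands, and Cyp24a1, at 230.0 to 257, above the 0.10 to 0.61 there. Plin1, at 92.4 to 348, was below the 515 to 1324 of non-lactating NZB glands. The C57 non-lactating glands, which include the sample tagged NZB, gave another picture for Igfbp5, at 1271 to 3138, which overlapped the NZB day 21 glands. Slc34a2, at 4.21 to 6.46 in C57 non-lactating glands, and Atp2b2, at 3.45 to 3.96, lay below all NZB day 21 glands. So did Olah, at 1.77 to 1.89, and Cyp24a1, at 0.19 to 0.80.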

How the data were processed

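Polyadenylated RNA of whole inguinal glands was sequenced, per the labels' protocols. The submitters' processing notes name the builds GRCm38 and mm10, and which aligner and counter were used is not given in the sources used here. The authors deposited log10 values of CPM plus 1 for 32544 gene symbols in 48 columns, 2 for each of 24 samples. That unit was read from the values, since each column sums to 1000000 after the log is undone. The tests had been planned for CPM on a log2 scale, and the log10 values were converted to it.

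Values were whole multiples of 1 read in 100% of cases in every column, within a tolerance of 0.05, which gives the depth. A mouse's 2 columns were averaged on the CPM scale, giving 1 replicate per mouse. Symbols turned into dates by a spreadsheet, 27 in all, stayed in the totals and were not named. For non-milk CPM the 11 milk protein genes were removed and the remainder rescaled to 1000000. Genes above 1 CPM in at least 3 samples were tested with limma on log2(CPM + 1) with a variance trend, 2-sided, over the 6 samples, with Benjamini-Hochberg adjustment over all genes tested and a threshold of 0.05. A fold change on this scale understates changes of low genes. Differences between days were tested as interaction terms over the 12 samples of both days. Single shares were tested by exact permutation (20 arrangements). The limma fit of day 21 was also run on simulated data that held no shift in composition between genotypes. That run cannot bear on how the counts depend on the scaling.

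Genes named were the 15 largest increases and decreases without overlap and with a mean of at least 4 on the log2 scale in the higher group, leaving out unnamed gene models, pseudogenes and immunoglobulin segments. Up to 6 members of each of 55 lists with the lowest adjusted p could be named too, as could members that moved against the rest of their list. The members and lists were chosen with earlier results of these data known. Replicate numbers did not pair mice across genotypes (correlations of deviations 0.14, -0.08 and 0.12), so no block was used. Positions are from the GENCODE annotation of GRCm38, and upstream sequences from the RefSeq table. Alternatives covered the scaling, the filter, the pseudocount, the spread estimate, the columns, limma voom on recovered reads and leaving out mice. Tools were limma 3.58.1 in R 4.3.3, and scipy 1.17.1, pandas 2.3.3, matplotlib 3.10.9 and numpy 2.4.6 in Python 3.11.15.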

Additional observations from a re-analysis of the deposited data

Results flagged for a closer look

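The results here were set apart because the difference between NZB and C57 itself differed between days, by an interaction term in limma. Against day 14, 506 genes had a higher NZB difference on day 21 and 359 a lower one, and against day 8, 997 had a higher and 674 a lower one. Among the largest increases of day 21 the difference was higher than on day 14 by 4.86 for Dmkn, 4.28 for Cyp2b19, 4.19 for Cyp2d10, 4.13 for Anxa1, 3.69 for Foxi1, 3.27 for Ctxn1 and 3.2 for Cryab on the log2 scale. Among the largest decreases it was -6.36 for Slc34a2, -5.99 for Atp2b2, -5.06 for Lao1, -4.45 for Gsdmc, -4.43 for Atp12a, -4.36 for Ccl28, -4.03 for Olah, -4.03 for Cidea and -4.01 for Pthlh. It was -3.87 for Slc9a4, -3.67 for Plpp4, -3.67 for Gldc and -3.29 for Col9a1. The named genes were chosen by their day 21 difference, which the interaction uses again, so the choice itself favours a pass.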

How the results depend on the processing

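On the non-milk scale of day 21 the genes higher in NZB numbered 3726 with the spread pooled over the 18 lactating samples and 1316 under the trimmed mean scaling, which was added after seeing the data, and leaving out 1 mouse gave 1165 to 3661. The genes lower in NZB numbered 487 to 982 when 1 mouse was left out. On the deposited scale leaving out 1 mouse gave 10457 to 13225 higher and 111 to 136 lower. The genes whose NZB difference was higher or lower on day 21 than on day 14 numbered 192 and 190 with no filter and 1094 and 539 with the spread pooled over 18 samples, and 94 to 1291 and 157 to 579 when 1 mouse was left out. Against day 8 leaving out 1 mouse of either day gave 658 to 1574 and 502 to 839. Leaving out 1 mouse gave a milk protein share difference of -51.1 to -43.3 points. With the replicate number as a replicate block, 2871 genes were higher and 883 lower on day 21, and 828 had a higher difference than on day 14. The numbers did not pair mice, so the block bears on nothing else here. On the deposited scale Irs2 (0.16), Atp6v0a1 (0.35), Akt1 (0.44), Hspa5 (0.54), Asns (0.065), Copz1 (0.15), Sec23b (0.24), Lman1 (0.18), mt-Co2 (0.13), Atp5g1 (0.098), Ndufc2 (0.63), Uqcrq (0.59), Ndufa1 (0.47), Clpx (0.13), Ehhadh (0.19) and Mpc1 (0.26) had positive log2 differences against negative ones on the non-milk scale, which follows from the smaller milk share in NZB. A filter at 5 CPM, a pseudocount of 0.25, the first column alone, the spread pooled over 24 samples and limma voom kept the day 21 counts within 1.5 times, at 1893 to 3212 higher and 792 to 941 lower, and no filter gave 1655 and 644. The cause of these shifts was not tested. The planned count tests of edgeR and DESeq2 were not run. With 3 mice a side, depth limits low genes and the number of mice limits all tests.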

Other observations

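Clock genes differed between the genotypes on day 21. Of 19 tested clock genes 7 rose and 5 fell on the non-milk scale, with 5 to 9 higher and 3 to 5 lower when 1 mouse was left out. The deposited scale gave 13 higher and 0 lower. Arntl, the activator at the centre of the clock, had 17.8, 14.4 and 13.0 non-milk CPM in NZB, against 53.5, 54.1 and 56.3 in C57 (log2 -1.81, SE 0.21, limma adjusted p = 0.00032). Dbp, a clock output factor that peaks at another time of day than Arntl, had 23.0, 13.4 and 14.0 in NZB, against 2.78, 1.18 and 2.83 in C57 (log2 2.45, SE 0.34, adjusted p = 0.00094). Per3 rose by 1.45, Tef by 1.51 and the repressor Bhlhe41 by 3.72 (adjusted p = 0.0022, 0.00039 and 0.0006). The labels give no time of day at which the glands were taken, and its part in these values was not tested.

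Of 7 tested mast cell markers 6 rose and 0 fell, and 3 to 6 rose when 1 mouse was left out. The chymase Cma1 had 7.97, 4.37 and 9.23 non-milk CPM in NZB, against 0.44, 0.79 and 0.71 in C57 (log2 2.27, adjusted p = 0.0014), and Mcpt4 rose by 1.61 (adjusted p = 0.009). The summed level of all 9 mast cell markers, with Fcer1a and Tpsab1, which were too low to be tested, was 64.6 to 132 in NZB and 13.0 to 18.6 in C57. Of 33 cell cycle genes 8 rose and 0 fell, among them the replication helicase subunits Mcm6 (1.97) and Mcm4 (1.40), and 4 to 10 rose when 1 mouse was left out.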
